A study of Canis lupus familiaris with 6 samples.

Results

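Transforming growth factor beta (TGF-beta) signaling and thrombospondin 1 were examined in canine keratinocytes exposed to cold atmospheric microwave plasma (CAMP). The genes were taken by symbol from the deposited gene table: the ligands TGFB1, TGFB2 and TGFB3, the receptors TGFBR1 and TGFBR2, the signal transducers SMAD2 and SMAD3, the inhibitor SMAD7, the activator THBS1 and the target TGFBI. These are 10 of the 35993 genes in the table, and each symbol was found under 1 gene identifier. The 10 genes were chosen with earlier results of the same comparison known, so their differences between the groups are a description. The calls that the tests across all genes made among them are counted once, beside the share of all genes called, and are not independent of the choice.

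CPEK cells, a wild-type line of canine epidermal keratinocytes, were grown with serum to near confluence. One group was exposed directly to CAMP for 30 s (dCAMP, 3 libraries), and the control group received the gas without plasma (gas, 3 libraries). In both groups the medium was exchanged after 15 min, and RNA was collected 24 h later for stranded mRNA sequencing. The 6 libraries come from 1 cell line, and the labels do not say whether the 3 of a group were separate cultures, so p-values measure only the spread between these libraries, which may be technical.

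TGF-beta ligands are secreted in a latent complex and are held there by their own propeptide and by latent TGF-beta binding proteins. Once released, for instance by thrombospondin 1 or by integrins, a ligand binds TGFBR2, which recruits and phosphorylates TGFBR1. TGFBR1 then phosphorylates SMAD2 and SMAD3, which join SMAD4 in the nucleus and regulate transcription, while SMAD7 is induced by the pathway and blocks it. In epidermis the pathway is known for restraining keratinocyte division and for its part in cell migration and matrix deposition during wound repair.

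The gas libraries stood further apart from each other than the dCAMP libraries did. On the first principal component, which held 71.2% of the variance, gas libraries 1, 2 and 3 lay at -94.1, -23.0 and 21.7, while all dCAMP libraries fell between 28.6 and 33.6. Over the genes tested, the median range of log2 CPM, where CPM stands for counts divided by the TMM-normalized library size, was 0.46 among the gas libraries and 0.16 among the dCAMP libraries. The log2 fold changes of the genes named from the pathway, and the medians of the lists, are therefore also given with gas library 1, and then gas library 3, left out. Total counts were 43084921 to 54082634 per library. Of 9 keratinocyte markers 8 had counts, and KRT1 was at 0 in every library. The summed CPM of these markers ranged over 46879 to 56432 with gas and over 43465 to 46277 with dCAMP. KRT5 and KRT14 held most of this sum, and both were lower in every dCAMP library than in any gas library. DSG3 went the other way, at 525 to 795 CPM with gas and 921 to 952 CPM with dCAMP. So did CDH1, at 422 to 441 CPM with gas and 448 to 463 CPM with dCAMP. TP63, ITGB4, COL17A1 and KRT10 overlapped between the groups. The summed CPM of 4 endothelial markers ranged over 15.6 to 18.4 with gas and over 18.8 to 24.7 with dCAMP, with PECAM1 at 0 throughout. VWF held most of this sum and overlapped between the groups, while KDR and CDH5 were higher in every dCAMP library than in any gas library. The summed CPM of the fibroblast, melanocyte and leukocyte markers overlapped between the groups, and PDGFRB, DCN, LUM, TYR, DCT, PTPRC and CD3E were at 0. Within these lists, ITGAM was at 2.85 to 3.67 CPM with gas and 4.25 to 4.60 CPM with dCAMP. MLANA was at 0 to 0.09 CPM with gas and 0.24 to 0.37 CPM with dCAMP. COL1A1 went the other way, at 1.04 to 1.58 CPM with gas and 0.58 to 1.01 CPM with dCAMP. Their other markers with counts overlapped. The part of these markers in the differences reported here was not tested.

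THBS1 had the highest level of the 10 genes per transcript length and stood higher in dCAMP-treated cells in every library. TGFB2 and the receptor TGFBR1 were also higher, as were SMAD2 and, by a small margin, TGFBR2, whereas TGFB1, TGFB3 and SMAD3 were lower. SMAD7 and the target TGFBI overlapped between the groups. So 8 of the 10 genes did not overlap between 3 gas and 3 dCAMP libraries, 5 of them higher and 3 lower with dCAMP. Among all 14708 genes tested, 39.9% did not overlap, 19% higher and 20.9% lower. The median log2 fold change of the 10 genes was 0.03, with 5 above and 5 below 0, and that of all genes tested was also 0.03.

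**Figure D1:**
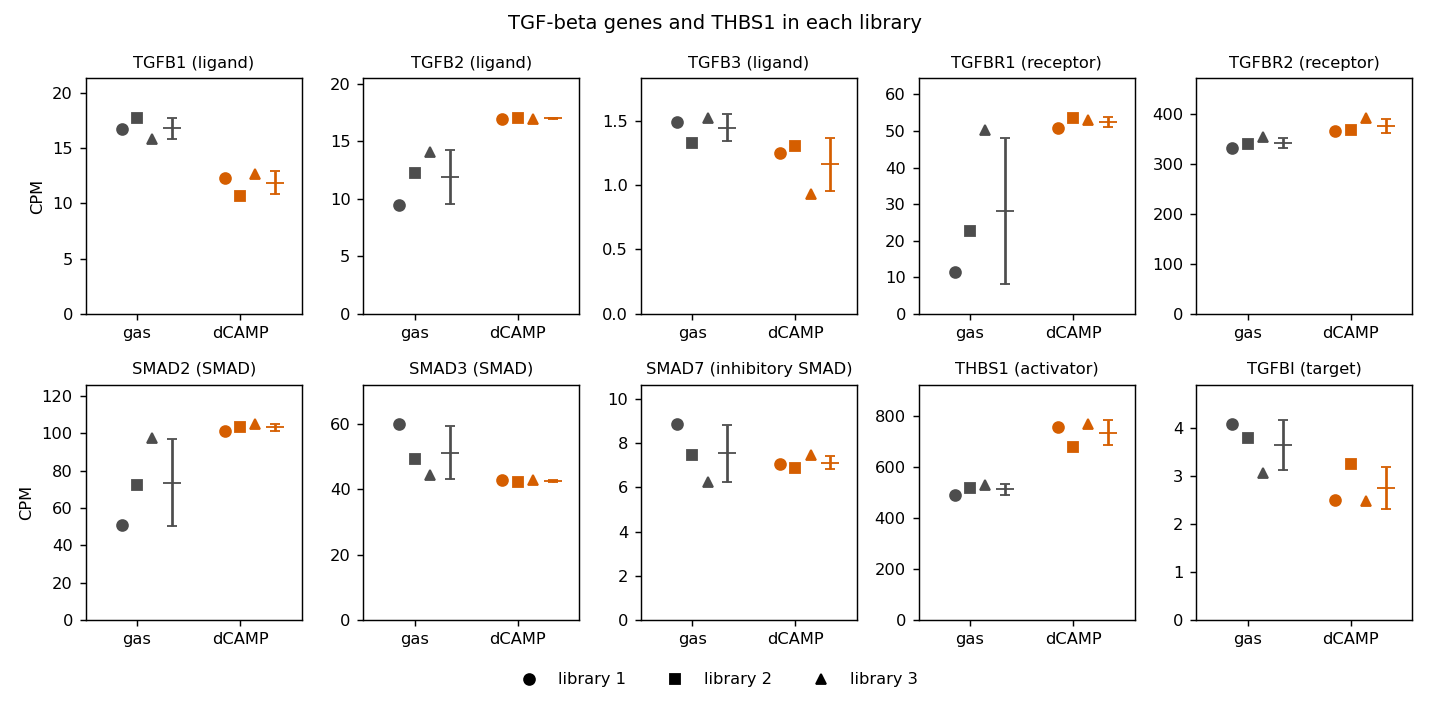
CPM (y axis, from 0 in each panel) of the 10 genes in the 3 gas and 3 dCAMP libraries (x axis), with 1 marker shape per library number and a bar for the mean ± SD of each group. THBS1, TGFB2, TGFBR1, SMAD2 and TGFBR2 are higher in every dCAMP library than in any gas library, TGFB1, TGFB3 and SMAD3 are lower, and SMAD7 and TGFBI overlap.

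With all 6 libraries, the quasi-likelihood test of edgeR called 0 of the 10 genes at a Benjamini-Hochberg adjusted p under 0.05, against 0% of all genes tested. At an unadjusted p under 0.05 it held 3 of the 10, THBS1, TGFB2 and TGFB1, against 20.7% of all genes. At the threshold in the study's methods, which joins a 2-fold change to an unadjusted p under 0.05, it held 0 of the 10, against 1.09% of all genes. The study's results section names an adjusted p under 0.05 in its place. DESeq2 gave an adjusted p under 0.05 for TGFB1 and THBS1, 2 of the 9 genes for which it returned one. Over the series it did so for 2.59% of the 11627 genes with a DESeq2 adjusted p. Without gas library 3, edgeR gave an adjusted p under 0.05 for 6 of the 10 (THBS1, TGFB1, TGFB2, TGFBR1, SMAD2 and SMAD3). Over the 14975 genes tested in that fit the share was 33.1%. Without gas library 1 edgeR gave it for 0 of the 10, against 0.00667% of the 14991 genes tested. With voom and quality weights in limma, where libraries that vary more count less, 8 of the 10 had an adjusted p under 0.05. The share was 60.8% of the 14708 genes.

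Among the ligands, TGFB1 was lower and TGFB2 higher after dCAMP. TGFB1 (gene 403998, chr1:112629476-112643885 in CanFam3.1) encodes the most widely expressed isoform. Its CPM was 16.8, 17.8 and 15.9 with gas (libraries 1, 2 and 3, in this order throughout) against 12.3, 10.7 and 12.7 with dCAMP. The 3 gas libraries lay close together and above every dCAMP library. The group means were 16.8 ± 0.96 and 11.9 ± 1.08 (SD, n = 3 each), a 1.41-fold lower level with dCAMP. This is a log2 fold change of -0.50 (SE 0.12), which became -0.52 when gas library 1 was left out and -0.58 when gas library 3 was. It was below that of 96.4% of the genes tested.

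TGFB2 (gene 488596, chr38:13430832-13511655) encodes an isoform that shares the TGF-beta receptors but needs a co-receptor such as TGFBR3 for high-affinity binding. It was at 9.44, 12.2 and 14.0 CPM with gas and at 17.0, 17.1 and 17.0 CPM with dCAMP. The dCAMP libraries were nearly equal, whereas gas library 1 was the lowest and gas library 3 the nearest to them. The means were 11.9 ± 2.32 and 17.0 ± 0.05 CPM (SD, n = 3 each), with a log2 fold change of 0.51 (SE 0.16). Leaving out gas library 1 gave 0.35, and leaving out gas library 3 gave 0.60. Its locus spans an uncharacterized gene, LOC111094483, that had 0 counts in every library.

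TGFB3 (gene 490796, chr8:48920874-48946037), the third isoform, had few counts, with 69, 70 and 81 of them with gas and 58, 56 and 42 with dCAMP. In CPM these were 1.49, 1.33 and 1.53 with gas and 1.25, 1.31 and 0.93 with dCAMP. The groups did not overlap, but the highest dCAMP library and the lowest gas library differed by 0.02 CPM. Its log2 fold change was -0.31 (SE 0.19), and leaving out gas library 1 or gas library 3 gave the same value. On the log2(FPKM + 1) scale, where FPKM is the authors' value scaled for transcript length and mapped reads, it was -0.05, and with the trend on gene length removed from each library it was -0.51.

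As TGFB1 was lower and TGFB2 higher, the balance between the RNA of these ligands differed between the groups. Per transcript length, the ratio of TGFB1 to TGFB2 in FPKM was 4.39, 3.78 and 2.89 with gas and 1.88, 1.56 and 1.94 with dCAMP. Per transcript length, TGFB1 RNA was thus the higher of the pair in every library, by a smaller margin with dCAMP. This order depends on the lengths, 1355 bases for TGFB1 and 3571 for the main transcript of TGFB2. In CPM, which is not scaled for length, TGFB1 was above TGFB2 in every gas library and below it in every dCAMP library. The ratio of TGFB1 to TGFB3 was 46.2, 54.9 and 42.1 with gas and 40.1, 33.3 and 55.8 with dCAMP, and these overlapped.

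The receptors differed in how far the gas libraries varied. TGFBR1 (gene 481628, chr11:56191383-56223042) encodes the type I receptor, the kinase that phosphorylates the SMADs. Its CPM was 11.3, 22.7 and 50.3 with gas and 50.8, 53.7 and 53.0 with dCAMP. Gas library 3 was almost at the dCAMP level, and the dCAMP mean exceeded gas libraries 1, 2 and 3 by 2.21, 1.21 and 0.06 on the log2 scale. The means were 28.1 ± 20.1 and 52.5 ± 1.46 CPM (SD, n = 3 each), and the log2 fold change was 0.90 (SE 0.50). Leaving out gas library 1 gave 0.51, and leaving out gas library 3 gave 1.58. The range of TGFBR1 over the gas libraries exceeded that of 94.1% of the genes tested.

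TGFBR2 (gene 477039, chr23:13886869-13946480) encodes the type II receptor that binds the ligand first. It was at 333.6, 340.2 and 354.8 CPM with gas and at 367.1, 369.2 and 393.7 CPM with dCAMP. All dCAMP libraries were above all gas libraries, by a margin of 12.4 CPM between the nearest. Only 3.29% of the genes tested had a smaller range over the gas libraries. TGFBR2 had a log2 fold change of 0.14 (SE 0.07), and of 0.10 and 0.11 when gas library 1 or gas library 3 was left out, but its direction turned to -0.03 (SE 0.09) when the trend on gene length was removed. Leaving out dCAMP library 3, the highest of its group, gave 0.07. The ratio of TGFBR2 to TGFBR1 in FPKM was 41.8, 21.2 and 9.99 with gas and 10.2, 9.74 and 10.5 with dCAMP, so it spread widely among the gas libraries and was nearly constant among the dCAMP libraries.

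**Figure D2:**
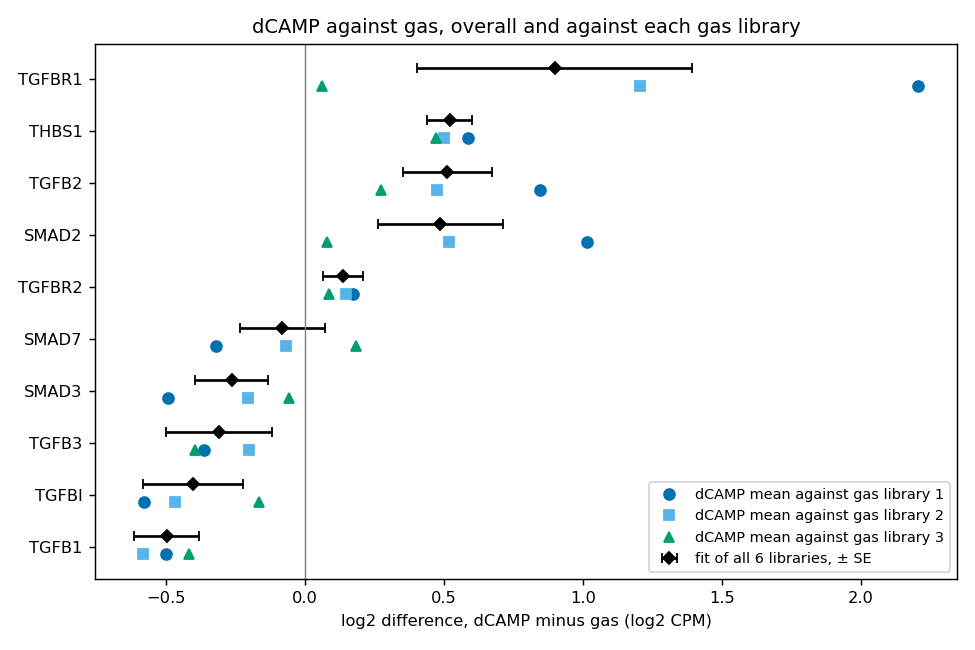
Log2 difference between dCAMP and gas (x axis, log2 CPM) for the 10 genes (y axis), with the fit of all 6 libraries ± SE (black) and the mean of the dCAMP libraries against each single gas library (colored markers). THBS1 is at 0.47 to 0.59 against every gas library, whereas TGFBR1 runs from 0.06 against gas library 3 to 2.21 against gas library 1.

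The receptor-regulated SMADs, which carry the signal to the nucleus, lay in opposite directions. SMAD2 (gene 480144, chr7:43696883-43778063) was at 51.1, 72.1 and 97.7 CPM with gas and at 101.3, 103.2 and 105.2 CPM with dCAMP. As for TGFBR1, gas library 1 was the lowest and gas library 3 lay just under the dCAMP libraries. Its log2 fold change of 0.49 (SE 0.23) became 0.27 when gas library 1 was left out, 0.70 when gas library 3 was, and 0.25 (SE 0.14) when the length trend was removed.

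SMAD3 (gene 610902, chr30:31246313-31360098) was at 60.1, 49.3 and 44.5 CPM with gas and at 43.0, 42.3 and 42.8 CPM with dCAMP. Here gas library 1 was the highest and gas library 3 again the nearest to the dCAMP libraries. For SMAD3 the log2 fold change was -0.26 (SE 0.13), and it was -0.15 when gas library 1 was left out and -0.40 when gas library 3 was. The ratio of SMAD2 to SMAD3 in FPKM was 0.127, 0.218 and 0.329 with gas and 0.349, 0.368 and 0.370 with dCAMP. Per transcript length, SMAD3 RNA was thus the higher of the pair in every library. This order depends on the lengths, 1442 bases for the main transcript of SMAD3 and 9789 for that of SMAD2. In CPM, SMAD2 was above SMAD3 in every library but gas library 1.

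SMAD7 (gene 490570, chr7:79706485-79734673), the inhibitory SMAD that competes for the type I receptor, was at 8.88, 7.46 and 6.26 CPM with gas and at 7.04, 6.86 and 7.46 CPM with dCAMP. The dCAMP values lay inside the range of the gas values. The difference, a log2 fold change of -0.08 (SE 0.15), changed direction to 0.03 when gas library 1 was left out and became -0.24 when gas library 3 was, and -0.15 when dCAMP library 3 was.

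THBS1 (gene 487486, chr30:6770212-6786875) encodes thrombospondin 1, a secreted matrix glycoprotein that can release TGF-beta from its latent complex. Its counts were 22648, 27347 and 28147 with gas and 35175, 29102 and 34816 with dCAMP. In CPM it was at 489.3, 519.4 and 530.6 with gas and at 759.1, 678.9 and 770.5 with dCAMP. Each dCAMP library was above each gas library, and the gas libraries were close to each other, with a range smaller than that of all but 5.33% of the genes tested. The means were 513.1 ± 21.4 and 736.2 ± 49.9 CPM (SD, n = 3 each), a 1.43-fold higher level with dCAMP. On the log2 scale this is 0.52 (SE 0.08), and 0.47 or 0.50 when gas library 1 or gas library 3 was left out.

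The difference in THBS1 thus rested less on a single gas library than that of TGFBR1 or SMAD2, since the dCAMP mean exceeded gas libraries 1, 2 and 3 by 0.59, 0.50 and 0.47 on the log2 scale. The log2 fold change of THBS1 was above that of 81.3% of the genes tested. Over 17 other ways of processing the libraries it ran from 0.30 to 0.55, and the lowest value came from removing the trend on gene length. The locus overlaps FSIP1 by 3060 bases, and FSIP1 had 0 to 20 counts per library. In RNA from a whole culture, a change in the share of cells that express a gene and a change in RNA per cell cannot be told apart.

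TGFBI (gene 481519, chr11:23932038-23971983) encodes a secreted matrix protein named for its induction by TGF-beta. It was at 4.08, 3.78 and 3.05 CPM with gas and at 2.50, 3.24 and 2.48 CPM with dCAMP. Gas library 3 and dCAMP library 2 overlapped. Its log2 fold change was -0.40 (SE 0.18), and it was -0.33 when gas library 1 was left out and -0.56 when gas library 3 was.

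Per transcript length, the order of the 10 genes was headed by THBS1 and TGFBR2 in both groups. In the gas libraries THBS1 was at 79.1 ± 1.80, TGFBR2 at 71.9 ± 1.24 and SMAD3 at 31.4 ± 5.51 FPKM (SD, n = 3). TGFB1 followed at 10.9 ± 0.69 FPKM. Then came SMAD2, TGFBR1, SMAD7 and TGFB2 at 6.71 ± 2.04, 4.13 ± 2.89, 4.09 ± 0.80 and 3.03 ± 0.49 FPKM. Among these 4, each overlapped the next in the order. TGFBI at 1.08 ± 0.17 FPKM and TGFB3 at 0.23 ± 0.02 FPKM came last.

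In the dCAMP libraries the first 3 places were the same, with THBS1 at 113.3 ± 7.25, TGFBR2 at 78.7 ± 3.07 and SMAD3 at 26.0 ± 0.10 FPKM (SD, n = 3). SMAD2 was then at 9.43 ± 0.31 FPKM, and TGFBR1 at 7.75 ± 0.26 and TGFB1 at 7.70 ± 0.68 FPKM overlapped. TGFB2 at 4.30 ± 0.13 and SMAD7 at 3.84 ± 0.16 FPKM came next, and TGFBI at 0.81 ± 0.13 and TGFB3 at 0.18 ± 0.03 FPKM were again the lowest. THBS1 was at 1.10 times the level of TGFBR2 with gas and at 1.44 times with dCAMP, and TGFB1 was in place 4 with gas and in place 6 with dCAMP.

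**Figure D3:**
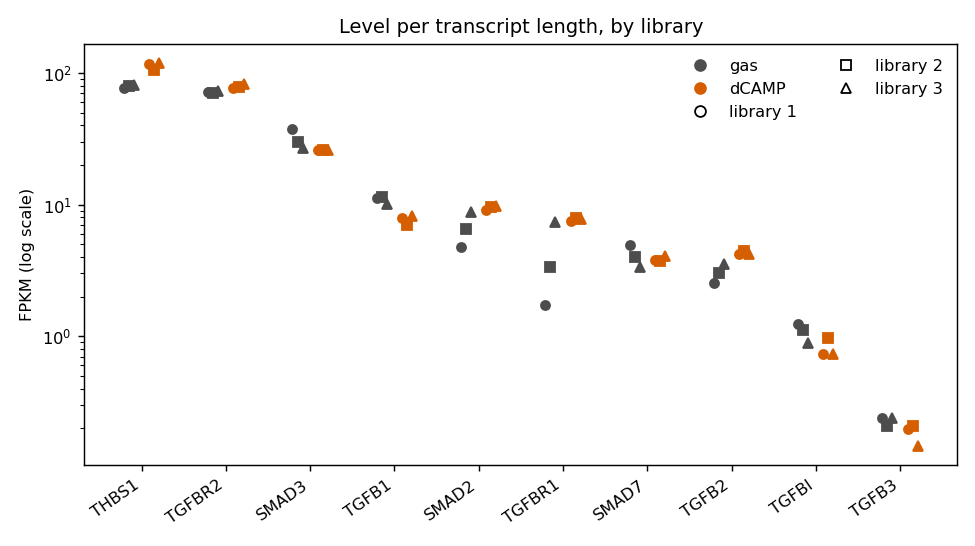
Level per transcript length (y axis, FPKM on a log scale) of the 10 genes, ordered by their gas mean (x axis), in 3 gas and 3 dCAMP libraries, 1 marker per library. THBS1 and TGFBR2 are the highest in both groups, near 79.1 and 71.9 FPKM with gas, and TGFB3 the lowest, and the gas libraries of TGFBR1 and SMAD2 spread the most.

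TGFB1, TGFB3, TGFBR1, THBS1 and TGFBI each had 1 transcript in the deposited transcript table, and SMAD3 had 1 that held at least 99.6% of its counts. TGFBR2 had a transcript of 4180 and one of 4234 bases. The longer held 25.7%, 42.5% and 37.9% of the counts with gas and 37.6%, 50.2% and 69.8% with dCAMP. The groups overlapped, and dCAMP library 3 had the highest share and gas library 1 the lowest.

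For TGFB2, the 3571-base transcript held 83.3%, 98.6% and 97.0% of the counts with gas and 80.0%, 78.4% and 98.4% with dCAMP. The 9789-base transcript of SMAD2 held 76.3%, 84.1% and 72.8% with gas and 90.5%, 84.0% and 88.6% with dCAMP. The 1623-base transcript of SMAD7 held 74.0%, 70.0% and 80.1% with gas and 76.1%, 62.9% and 70.6% with dCAMP. The shares of these transcripts overlapped between the groups. A 9720-base transcript of SMAD2 held 15.5%, 11.7% and 19.0% with gas and 7.43%, 10.8% and 7.20% with dCAMP, and these did not overlap. Another SMAD2 transcript of the same length was at 0 in every library. Of the 7 transcripts of SMAD2 it was the former alone that did not overlap, and the share over all transcripts is not given here. An exact two-sided permutation test of 3 against 3 libraries cannot go below a p of 0.1. How the reads shared by these near-identical transcripts were divided was not given in the sources used here.

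**Figure D4:**
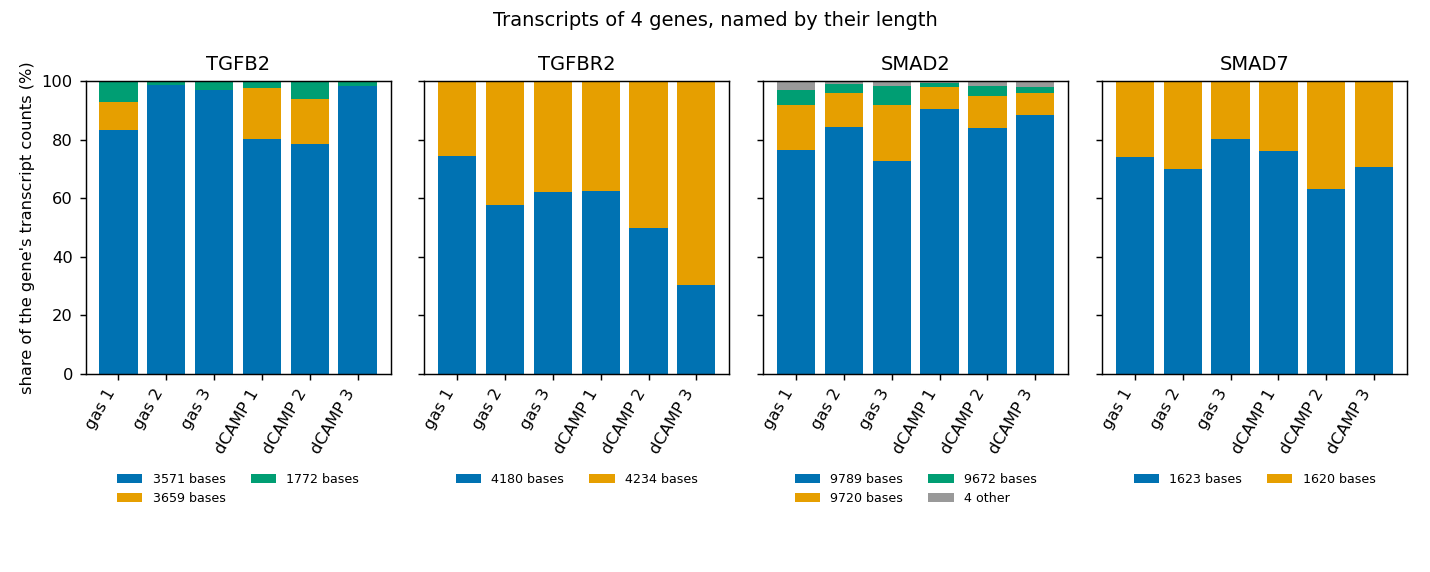
Share of each gene's transcript counts (y axis, %) held by its transcripts, named by their length, in the 6 libraries (x axis) for TGFB2, TGFBR2, SMAD2 and SMAD7; transcripts under 5% in every library are joined as other. The 4234-base transcript of TGFBR2 holds 25.7% in gas library 1 and 69.8% in dCAMP library 3, and the 9720-base transcript of SMAD2 holds 11.7% to 19.0% with gas and 7.20% to 10.8% with dCAMP.

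The genes nearest to THBS1 over the 6 libraries, by the root mean square difference of log2 CPM centred on each gene's own mean, were CITED2 at 0.037, DLC1 at 0.045, FGF1 and SPTLC3 at 0.058 each, and LOC111097714 at 0.062. The median over the other genes tested was 0.38. CITED2, a transcriptional coregulator, was at 35.8, 39.2 and 39.8 CPM with gas and at 56.3, 47.8 and 54.9 CPM with dCAMP. Its dCAMP library 2 was the lowest of its group, as for THBS1. These genes were picked for their likeness to THBS1 over the same libraries, so such a shared pattern is only a description. FGF1, a fibroblast growth factor, was at 7.63, 8.55 and 8.22 CPM with gas and at 11.8, 11.2 and 13.3 CPM with dCAMP. Of the other 9 genes described here TGFB2 was the nearest to THBS1, at 0.15, and TGFBR1 the farthest, at 0.67.

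The other genes of the pathway were taken from 6 lists of 96 genes, of which 95 were in the table and 76 passed the filter on low counts. Integrin subunits of receptors that activate latent TGF-beta had the largest differences among the activators and antagonists. The TGF-beta induced targets lay on both sides of 0. By the quasi-likelihood test of edgeR, 0 of the 76 had a Benjamini-Hochberg adjusted p under 0.05, and 13 had an unadjusted p under 0.05. Of those 13, 6 were higher and 7 lower with dCAMP, against 6.81% and 13.9% of all genes tested. At the 2-fold threshold with an unadjusted p under 0.05, ITGB8 was the only one, against 1.09% of all genes. DESeq2 gave an adjusted p under 0.05 for 0 of the 65 for which it returned one, against 2.59% of 11627 such genes in the series. Voom with quality weights did so for 44 of 76, against 60.8% of all genes. Without gas library 3 edgeR did so for 24 of 77, against 33.1% of the 14975 genes tested in that fit. Of these 24, 15 were higher (ITGB8, ITGB6, INHBA, BMPR1A, BMPR2, TGFBR3, SKIL and CD47 among them) and 9 were lower, namely BGN, CALR, FSTL3, FURIN, ID1, MMP14, SDC1, SKI and TAGLN. The shares of all genes called higher and lower in this fit are not given here, so this split cannot be set against them. The median log2 fold change of the 76 genes was 0.09, against 0.03 for all genes tested. Leaving out gas library 1 lowered it to 0.04. Without gas library 3 the filter on low counts kept 77 genes, and their median was -0.04, so this median is not of the same genes.

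**Figure D5:**
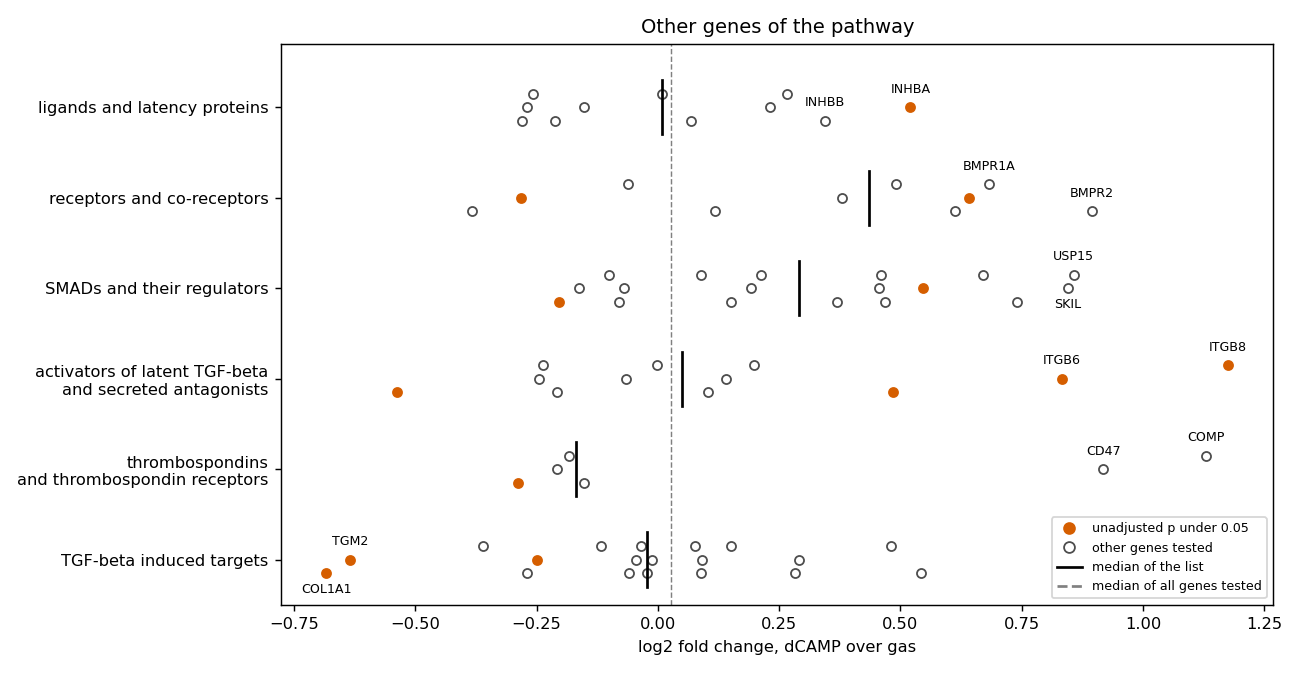
Log2 fold change of dCAMP over gas (x axis) of the 76 tested pathway genes in 6 lists (y axis), 1 point per gene, filled at an unadjusted p under 0.05, with the median of each list (black bar) and of all genes tested (dashed line). Named genes are those chosen by rule in each list; ITGB8 at 1.18 and COMP at 1.13 lie farthest to the right, and COL1A1 at -0.68 and TGM2 at -0.63 farthest to the left.

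Of the ligands and latency proteins, 11 were tested, 6 higher and 5 lower, with a median log2 fold change of 0.01, which turned to -0.03 and -0.04 when gas library 1 or gas library 3 was left out. INHBA, an activin subunit, was at 7.71, 10.2 and 12.7 CPM with gas and at 13.0, 17.2 and 13.8 CPM with dCAMP (log2 fold change 0.52, SE 0.21, edgeR adjusted p = 0.240). INHBB, another activin subunit, had 0.34 (SE 0.27, edgeR adjusted p = 0.402). With gas library 1 or gas library 3 left out, INHBA had 0.34 or 0.66 and INHBB had 0.52 or 0.08. Among the latent TGF-beta binding proteins, LTBP1 was at 177.0 to 202.3 CPM with gas and 189.8 to 200.1 CPM with dCAMP. LRRC32, which presents latent TGF-beta on the cell surface, was at 0 in every library, a count that allows up to 3 counts each.

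Of the receptors and co-receptors, 10 were tested, 7 higher and 3 lower, with a median of 0.43, and of 0.23 or 0.52 when gas library 1 or gas library 3 was left out. BMPR2, the type II receptor for bone morphogenetic proteins, was at 23.7, 38.9 and 72.9 CPM with gas and at 82.0, 81.1 and 88.8 CPM with dCAMP (log2 fold change 0.89, SE 0.38, edgeR adjusted p = 0.245). BMPR1A, a type I receptor for the same ligands, had 0.68 (SE 0.30, edgeR adjusted p = 0.247). In both, as in TGFBR1, gas library 1 was the lowest and gas library 3 the nearest to the dCAMP libraries. TGFBR3, the co-receptor that presents TGF-beta 2, was at 4.21, 4.63 and 5.49 CPM with gas and at 7.53, 6.30 and 8.59 CPM with dCAMP (log2 fold change 0.64, SE 0.17, edgeR adjusted p = 0.221), and was named after its values were seen. Per transcript length its libraries overlapped, at 0.64, 0.95 and 1.17 FPKM with gas and 1.47, 0.98 and 1.19 FPKM with dCAMP. Over 17 other ways of processing, its lowest log2 fold change was 0.21. With gas library 1 or gas library 3 left out, BMPR2 had 0.57 or 1.38, BMPR1A 0.45 or 1.06 and TGFBR3 0.54 or 0.71.

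Of the SMADs and their regulators, 18 were tested, 13 higher and 5 lower, with a median of 0.29. This median was 0.16 or 0.41 when gas library 1 or gas library 3 was left out, and 0.15 when the length trend was removed. USP15, a deubiquitinase that acts on the receptor complex, was at 6.18 CPM in gas library 1 and at 30.8 and 46.9 CPM in gas libraries 2 and 3, against 48.0 to 53.8 CPM with dCAMP (log2 fold change 0.86, SE 0.63, edgeR adjusted p = 0.384). SKIL, a nuclear corepressor of the SMADs, was at 4.04, 5.51 and 12.0 CPM with gas and at 12.5, 13.7 and 12.5 CPM with dCAMP (log2 fold change 0.84, SE 0.39, edgeR adjusted p = 0.258). With gas library 1 or gas library 3 left out, USP15 had 0.37 or 1.41 and SKIL 0.55 or 1.38.

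Of the activators of latent TGF-beta and secreted antagonists, 12 were tested, 6 higher and 6 lower, with a median of 0.05. This became 0.02 when gas library 1 was left out. Without gas library 3 the filter on low counts kept 13 genes, 6 higher and 7 lower, with a median of -0.14. That median is thus not of the same genes. ITGB8, the beta subunit of an integrin that activates latent TGF-beta, was at 8.06, 14.6 and 30.8 CPM with gas and at 40.1, 40.8 and 40.1 CPM with dCAMP (log2 fold change 1.18, SE 0.45, edgeR adjusted p = 0.235). ITGB6, the beta subunit of the epithelial integrin with the same activity, was at 27.2, 33.7 and 51.2 CPM with gas and at 64.6, 67.3 and 67.9 CPM with dCAMP (log2 fold change 0.83, SE 0.23, edgeR adjusted p = 0.221). For both subunits gas library 1 was the lowest and gas library 3 the nearest to the dCAMP libraries. Without gas library 3 their log2 fold changes were 1.78 and 1.08, each with an edgeR adjusted p of 0.0203, and without gas library 1 they were 0.81 and 0.63.

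Of the thrombospondins and their receptors, 6 were tested, 2 higher and 4 lower, with a median of -0.17, and of -0.10 or -0.21 when gas library 1 or gas library 3 was left out. THBS2 and THBS4 were at 0 in every library. THBS3, a related secreted protein, was at 1.73 to 2.39 CPM with gas and at 1.75 to 1.97 CPM with dCAMP, and its libraries overlapped. CD47, a cell surface receptor for thrombospondin 1, was at 24.7, 56.2 and 107.3 CPM with gas and at 116.6, 120.1 and 118.9 CPM with dCAMP (log2 fold change 0.92, SE 0.48, edgeR adjusted p = 0.284). CD36, another receptor for thrombospondin 1, was at 0 in every library. COMP, which is also called thrombospondin 5, had 14, 18 and 0 counts with gas and 23, 29 and 17 with dCAMP (log2 fold change 1.13, SE 0.77, edgeR adjusted p = 0.356). With gas library 1 or gas library 3 left out, CD47 had 0.52 or 1.51 and COMP 1.37 or 0.57.

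Of the TGF-beta induced targets, 19 were tested, 8 higher and 11 lower, with a median of -0.02, which turned to 0.04 when gas library 1 was left out and became -0.12 when gas library 3 was. CTGF, a common readout of the pathway, had a log2 fold change of 0.48 (SE 0.25), and its libraries overlapped between the groups. Leaving out dCAMP library 1 gave 0.21. PMEPA1, a target that also restrains the pathway, was at 13.1, 13.5 and 13.3 CPM with gas and at 12.6, 11.6 and 14.1 CPM with dCAMP. COL1A1, a fibrillar collagen, was at 1.40, 1.58 and 1.04 CPM with gas and at 1.01, 0.86 and 0.58 CPM with dCAMP (log2 fold change -0.68, SE 0.27, edgeR adjusted p = 0.239). COL1A2, of the same list, was at 0.39, 0.40 and 0.36 CPM with gas and at 0.39, 0.63 and 0.71 CPM with dCAMP, and its libraries overlapped. TGM2, a transglutaminase, was below 1 CPM in every library (log2 fold change -0.63, SE 0.25, edgeR adjusted p = 0.236). With gas library 1 or gas library 3 left out, COL1A1 had -0.67 or -0.88, TGM2 -0.71 or -0.63 and CTGF 0.33 or 0.57. PMEPA1 had -0.06 with all libraries and -0.09 or -0.10 with these left out.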

How the data were processed

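Poly(A) RNA of 3 gas and 3 dCAMP libraries was sequenced. The authors mapped reads to CanFam3.1 and deposited whole-number counts without normalization, FPKM and TPM for 35993 genes and 87504 transcripts. The submitters' processing notes name FastQC 0.11.7, Trimmomatic 0.38, HISAT2 2.1.0 and StringTie 2.1.3b. The annotation release and the counting of overlapping genes or strands were not given in the sources used here. The deposited TPM values were not used. Counts were analysed with R 4.3.3 and edgeR 4.0.16 (TMM, filterByExpr, prior count 2, quasi-likelihood test, Benjamini-Hochberg adjustment over 14708 genes). Alternatives used limma 3.58.1 (voom with quality weights, or log2 of FPKM plus 1 or 0.1), DESeq2 1.42.0, RLE factors, other filters, removal of a lowess trend on length (span 0.3), a replicate block, and leaving out each library. The steps were tested on simulated data with the same dispersion for all genes and libraries, so the wider spread of the gas libraries was not simulated. Named genes were the 10 genes, those of each list past the 2-fold threshold (unadjusted p under 0.05) or with the 2 largest changes, and the 5 nearest to THBS1. CTGF, PMEPA1, LTBP1, THBS3, TGFBR3, COL1A2 and genes at 0 were added after their values were seen. The genes and lists were chosen with earlier results of these data known. A count of 0 allows up to 3 counts, for counting error only. Coordinates are those of the deposited transcripts.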

Additional observations from a re-analysis of the deposited data

How the results depend on the processing

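The 10 genes kept their direction under 17 alternatives, except TGFBR2 when the trend on gene length was removed (-0.03, also with the replicate block) and SMAD7 without gas library 1 (0.03). Their median log2 fold change of 0.03 became -0.040 with the length trend removed, -0.033 with that and the replicate block, and -0.065 to 0.066 without single libraries. For THBS1 the length trend lowered it from 0.52 to 0.30. Counts over all genes moved more, and the cause was not tested. Genes past the 2-fold threshold at an unadjusted p under 0.05 numbered 161, against 369 by DESeq2, 327 by DESeq2 on genes with a count in every library, 279 without a filter, 1010 by voom with quality weights, 373 by limma on log2(FPKM + 0.1), and 135 to 1523 without single libraries. Genes with an adjusted p under 0.05 numbered 0, against 301 and 161 by DESeq2 on these gene sets, 3 on log2(FPKM + 0.1), 8944 by voom, and 0 to 4953 without single libraries, 4953 being without gas library 3. Pathway genes at the 2-fold threshold numbered 1, against 0 on log2(FPKM + 1) and with the length trend removed, 2 on log2(FPKM + 0.1), 7 by voom and 0 to 7 without single libraries. Pathway genes with an adjusted p under 0.05 numbered 0, against 44 by voom and 0 to 24 without single libraries. Same-numbered libraries deviated together with correlations of 0.13, 0.02 and 0.05, so the numbers were not taken as a pairing. With the replicate block, 435 genes and 3 pathway genes passed the 2-fold threshold, and 475 and 2 with the length trend also removed. Groups of 3 libraries, and genes with few counts such as TGFB3 and COMP, limit the precision.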
